A study of Mus musculus with 2 samples.

Results

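Semaphorins, plexins and neuropilins were followed through the cell classes of the mouse hippocampus. Mice were made to express human tau from a viral vector or given a control whose MAPT transcript carries an early stop codon. The genes were all those whose symbol starts with Sema3, Sema4, Sema5, Sema6 or Sema7, or with Plxna, Plxnb, Plxnc or Plxnd, together with Nrp1 and Nrp2. This gave 34 of the 32285 genes measured: 20 semaphorins, 9 plexins, 2 neuropilins and 3 antisense RNAs that lie inside Plxna4. The AAV-TAU library came from C57BL/6J mice whose ventricles were injected on both sides, on postnatal day 0, with an adeno-associated virus (AAV) carrying wild-type human MAPT of the 2N4R form, the full-length tau isoform. The AAV-STOP library came from C57BL/6J mice injected alike with a virus whose MAPT transcript carries the early stop codon, so both groups carried a vector and a human MAPT transcript. Hippocampi were taken at 6 weeks and those of 3 mice were pooled into 1 library per group, so no value here has a spread between mice and no test was possible. All intervals cover counting error only. Neither the promoter of the vector nor the cells it reached were given in the sources used here. Human MAPT was not among the genes counted, so the libraries could not be checked for their vectors.

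Semaphorins are secreted or membrane-bound guidance cues, and plexins are their main receptors, whose intracellular part acts on small GTPases and through them on the cytoskeleton. The secreted class 3 semaphorins mostly bind a neuropilin, which captures the ligand while a type A plexin signals, whereas Sema3e can bind Plxnd1 without a neuropilin. The other vertebrate classes are anchored in the membrane and mostly bind plexins directly: Sema4d binds type B plexins, Sema6a binds Plxna2 and Plxna4, and Sema7a binds Plxnc1 and an integrin. In the hippocampus the family is known for guiding mossy fibres to their layer in CA3 and for setting the number and place of dendritic spines.

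The AAV-TAU library held 19596 barcodes with 109428807 UMIs (unique molecular identifiers, which count captured RNA molecules), and the AAV-STOP library held 20265 barcodes with 130252240 UMIs. Barcodes marked as doublets numbered 1814 in AAV-TAU and 2427 in AAV-STOP, and 17780 nuclei of AAV-TAU and 17834 of AAV-STOP were kept. The median share of mitochondrial UMIs was 0.281% in AAV-TAU and 0.174% in AAV-STOP. The libraries shared 116 barcodes, of which 12 fell in the same class in both. Nuclei were clustered without the 34 genes and named from marker genes, so each class is only like the cell type it is named after. The cut-offs for naming were set after the clusters were seen. Of the classes, 18 had nuclei in both libraries and 14 had 100 or more in each, between 118 and 4303 nuclei in AAV-TAU and between 125 and 5287 in AAV-STOP. Clusters without a name held 21.1% of the AAV-TAU nuclei and 21.3% of the AAV-STOP nuclei. Levels are given as CPM, the UMIs of a gene per 1000000 UMIs of its class, and are compared between classes for 1 gene at a time.

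Most of the genes peaked in few classes, and the same class had the highest level in both libraries for 24 of the 31 protein-coding genes. For 13 of these the 95% Poisson interval of the highest class lay apart from that of the next class in both libraries. Immature-like neurons, named from Dcx, Sox11 and other genes of young granule cells, had the highest level of 6 genes: Nrp2, Plxna2, Plxna3, Sema3c, Sema4g and Sema6d. Newly formed oligodendrocyte-like cells, the step between precursor and myelinating cell, had the highest level of 5 genes: Plxnb3, Sema4a, Sema4d, Sema5a and Sema6a. The precursor-like class had the highest level of Sema3d and Sema5b, the astrocyte-like class of Plxnb1 and Sema4b, and the endothelial-like class of Sema3g and Sema7a. Of the 34 genes, 29 passed the level filter in at least 1 of the 14 classes (a mean of both libraries of 10 CPM or more, and 50 or more UMIs in both together). The 5 that passed in none were Sema3b, Sema3f, Sema3g, Plxna4os1 and Plxna4os2.

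**Figure D1:**
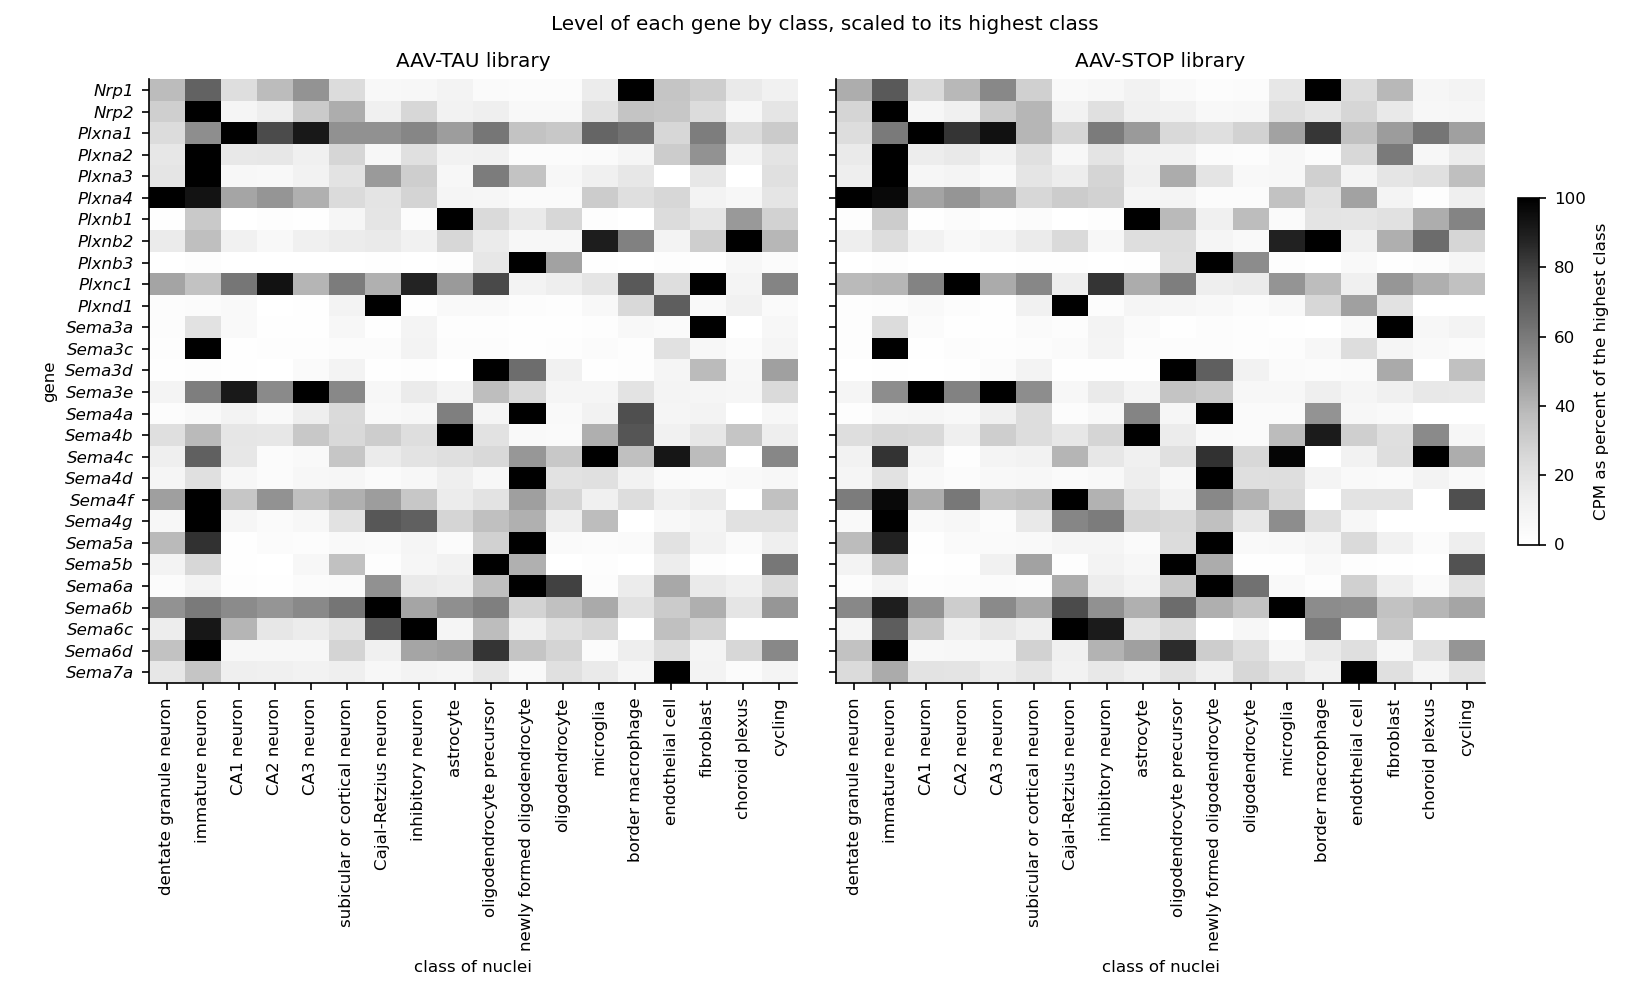
Level of each protein-coding gene that passed the filter in at least 1 class (rows) in the 18 classes with nuclei in both libraries (columns), in AAV-TAU on the left and AAV-STOP on the right. Grey is CPM as a percent of the gene's highest class in that library, so shades compare classes within a row and not genes with each other. Sema3c is darkest in immature neurons and Plxnb3 in newly formed oligodendrocytes, in both libraries.

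Among the receptors, Plxna4, which signals with neuropilins and also takes class 6 ligands, had 1463 CPM in AAV-TAU and 1482 CPM in AAV-STOP in dentate granule-like neurons. It had 1359.9 CPM in AAV-TAU and 1435 CPM in AAV-STOP in immature-like neurons and 347 CPM in AAV-TAU and 385 CPM in AAV-STOP in subicular or cortical-like neurons. The granule and immature classes had overlapping intervals in AAV-STOP alone. Plxna2, a Sema6a receptor, had 1003 CPM in AAV-TAU and 1175 CPM in AAV-STOP in immature-like neurons, against 171 CPM in AAV-TAU and 181 CPM in AAV-STOP in granule-like neurons, so its level was over 5 times as high in the young cells in both libraries. Nrp2, the neuropilin that binds Sema3c and Sema3f, followed the same order, with 487 CPM in AAV-TAU and 535 CPM in AAV-STOP in immature-like and 143 CPM in AAV-TAU and 144 CPM in AAV-STOP in granule-like neurons. Among the pyramidal classes it was low in CA1-like neurons, with 40.5 CPM in AAV-TAU and 40.7 CPM in AAV-STOP, and higher in CA3-like neurons, with 154 CPM in AAV-TAU and 167 CPM in AAV-STOP. Nrp1, the neuropilin that binds Sema3a, ran the same way in these classes, with 691 CPM in AAV-TAU and 742 CPM in AAV-STOP in CA3-like and 301 CPM in AAV-TAU and 331 CPM in AAV-STOP in CA1-like neurons. Its highest level was in border macrophage-like cells, with 1354 CPM in AAV-TAU (95% interval 1191 to 1532, 251 UMIs) and 1354 CPM in AAV-STOP (1117 to 1625, 115 UMIs), a class of 68 nuclei in AAV-TAU and 30 in AAV-STOP.

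The type B plexins were highest in glia and other non-neuronal classes. Plxnb3, a plexin known from oligodendrocytes, had 397 CPM in AAV-TAU and 337 CPM in AAV-STOP in newly formed oligodendrocyte-like cells, 182 CPM in AAV-TAU and 180.2 CPM in AAV-STOP in oligodendrocyte-like cells and 69.6 CPM in AAV-TAU and 72.8 CPM in AAV-STOP in precursor-like cells. In granule-like neurons it had 1.04 CPM in AAV-TAU and 0.944 CPM in AAV-STOP. Plxnb1, a Sema4d receptor, had 71.1 CPM in AAV-TAU and 61.9 CPM in AAV-STOP in astrocyte-like cells, and Plxnb2 had 76.1 CPM in AAV-TAU and 83.2 CPM in AAV-STOP in microglia-like cells and close levels in the small choroid plexus and border macrophage-like classes. Sema4d itself, their ligand, had 742 CPM in AAV-TAU and 817 CPM in AAV-STOP in newly formed oligodendrocyte-like cells, and 159 CPM in AAV-TAU and 181 CPM in AAV-STOP in microglia-like cells, where its interval overlapped those of the immature neuron and oligodendrocyte-like classes. Plxnd1, the Sema3e receptor, was highest in Cajal-Retzius-like neurons, with 86.6 CPM in AAV-TAU and 89.99 CPM in AAV-STOP, and next in the endothelial-like class, with 60.8 CPM in AAV-TAU and 42.2 CPM in AAV-STOP, and these did not differ beyond their intervals. Of the 18 classes, CA3-like neurons had the most of its ligand Sema3e, with 333 CPM in AAV-TAU and 366 CPM in AAV-STOP. Next were CA1-like neurons, with 304 CPM in AAV-TAU and 364 CPM in AAV-STOP, and in AAV-STOP these did not differ beyond their intervals. An unnamed cluster of 144 AAV-TAU and 135 AAV-STOP nuclei had more Sema3e, with 378 CPM in AAV-TAU and 425 CPM in AAV-STOP. Plxnc1, the Sema7a receptor, had 105 CPM in AAV-TAU and 126 CPM in AAV-STOP in CA2-like neurons and 98.4 CPM in AAV-TAU and 104 CPM in AAV-STOP in inhibitory-like neurons.

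Among the membrane-bound ligands, Sema6d, which binds Plxna1, was spread widely, with 1154 CPM in AAV-TAU and 1280.1 CPM in AAV-STOP in immature-like neurons, 960.1 CPM in AAV-TAU and 1093 CPM in AAV-STOP in precursor-like cells and 538 CPM in AAV-TAU and 596 CPM in AAV-STOP in astrocyte-like cells. Sema6a had 520.4 CPM in AAV-TAU and 629 CPM in AAV-STOP in newly formed oligodendrocyte-like cells, 413 CPM in AAV-TAU and 396 CPM in AAV-STOP in oligodendrocyte-like cells and 269 CPM in AAV-TAU and 270.0 CPM in AAV-STOP in Cajal-Retzius-like neurons. Sema5a had 1585 CPM in AAV-TAU and 1783 CPM in AAV-STOP in newly formed oligodendrocyte-like cells and 1326 CPM in AAV-TAU and 1579.6 CPM in AAV-STOP in immature-like neurons. In oligodendrocyte-like cells Sema5a was far lower, with 64.8 CPM in AAV-TAU and 90.3 CPM in AAV-STOP, so unlike Sema6a its high level in the lineage lay in the newly formed cells and, with 448 CPM in AAV-TAU and 412 CPM in AAV-STOP, in the precursor-like cells. Sema5b was highest in precursor-like cells, with 239 CPM in AAV-TAU and 239 CPM in AAV-STOP, and Sema4a in newly formed oligodendrocyte-like cells, with 99.6 CPM in AAV-TAU and 116 CPM in AAV-STOP. Sema4b had 73.2 CPM in AAV-TAU and 64.97 CPM in AAV-STOP in astrocyte-like cells, and Sema7a, which is held in the membrane by a lipid anchor, had 146 CPM in AAV-TAU and 103 CPM in AAV-STOP in endothelial-like cells. Sema4f, Sema4g, Sema6b and Sema6c had less than 60 CPM in every class in both libraries. Of the class 3 ligands that passed the filter in no class, Sema3g had 69.1 CPM in AAV-TAU (95% interval 44.7 to 102, 25 UMIs) and 34.5 CPM in AAV-STOP (15.8 to 65.5, 9 UMIs) in the endothelial-like class of 88 nuclei in AAV-TAU and 49 in AAV-STOP. Sema3f, the ligand of Nrp2, had 4.17 CPM in AAV-TAU and 7.82 CPM in AAV-STOP in subicular or cortical-like neurons.

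Sema3d, Sema3a, Sema3e and Sema3c lie on 1 stretch of chromosome 5, between positions 12383385 and 17730268 of GRCm38, with 21 protein-coding genes over 5.35 Mb, and each had its highest level in another class. Sema3d had 291 CPM in AAV-TAU and 364 CPM in AAV-STOP in precursor-like cells and 1.95 CPM in AAV-TAU and 1.42 CPM in AAV-STOP in granule-like neurons. Sema3a had 199 CPM in AAV-TAU and 264 CPM in AAV-STOP in fibroblast-like cells and 2.85 CPM in AAV-TAU and 1.59 CPM in AAV-STOP in precursor-like cells. Sema3e, highest of the 18 classes in CA3-like neurons as above, had 28.1 CPM in AAV-TAU and 44.8 CPM in AAV-STOP in fibroblast-like cells. Sema3c had 704 CPM in AAV-TAU and 786 CPM in AAV-STOP in immature-like neurons and 11.9 CPM in AAV-TAU and 10.7 CPM in AAV-STOP in granule-like neurons. All 4 genes are on the forward strand, and no class had the highest level of more than 1 of them.

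**Figure D2:**
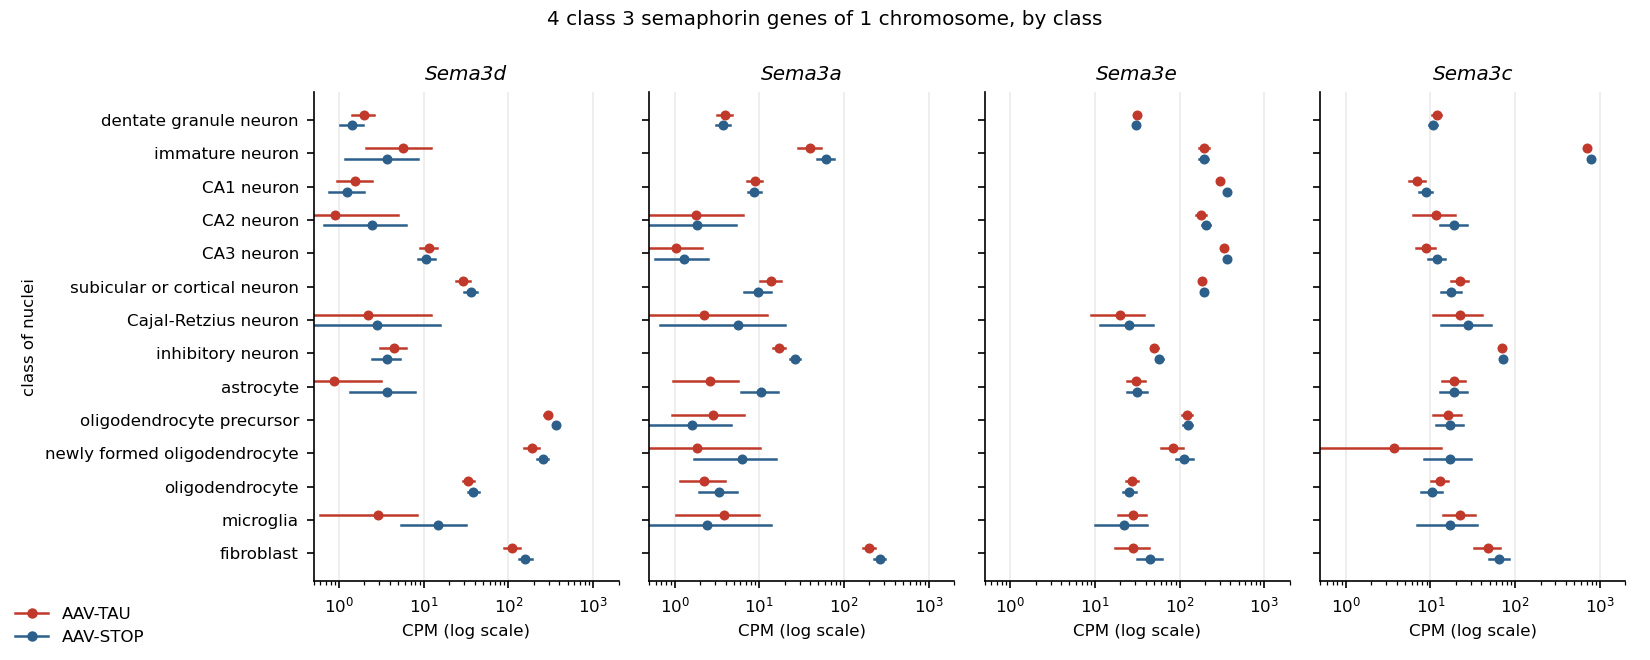
CPM on a log axis (horizontal) of Sema3d, Sema3a, Sema3e and Sema3c, in their order along chromosome 5, in the 14 compared classes (vertical). Red points above are AAV-TAU and blue points below are AAV-STOP, with exact 95% Poisson intervals, cut at the left edge where they run past it. The peak of each gene falls in a different class and in the same class in both libraries.

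The 250 bases before the RefSeq starts of these genes (build GRCm38.p6, forward strand) are shown because neighbouring genes with one protein architecture differed in the class where each was highest. Capitals mark each match to the E-box CANNTG and to ACAAAG, the core motif of SOX factors, on both strands, where the second reads CTTTGT when reversed. No match to TATAAA was found in them.
Sema3d, chr5:12382916-12383165: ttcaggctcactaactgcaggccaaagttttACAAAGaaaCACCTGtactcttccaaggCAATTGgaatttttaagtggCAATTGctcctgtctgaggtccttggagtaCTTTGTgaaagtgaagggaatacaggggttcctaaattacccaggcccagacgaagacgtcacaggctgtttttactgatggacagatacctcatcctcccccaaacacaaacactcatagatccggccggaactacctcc
Sema3a, chr5:13396534-13396783: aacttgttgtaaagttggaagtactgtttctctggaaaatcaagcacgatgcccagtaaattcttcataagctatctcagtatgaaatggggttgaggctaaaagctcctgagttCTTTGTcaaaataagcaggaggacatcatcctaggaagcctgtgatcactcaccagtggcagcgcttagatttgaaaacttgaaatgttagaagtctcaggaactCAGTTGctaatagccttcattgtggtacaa
Sema3e, chr5:14025026-14025275: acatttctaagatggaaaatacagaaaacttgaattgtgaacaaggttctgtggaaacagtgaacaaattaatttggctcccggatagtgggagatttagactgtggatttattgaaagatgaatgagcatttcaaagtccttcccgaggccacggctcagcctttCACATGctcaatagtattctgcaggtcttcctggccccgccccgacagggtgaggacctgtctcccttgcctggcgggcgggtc
The Sema3d window held 3 E-box matches and 2 matches to ACAAAG, the Sema3a window held 1 of each, and the Sema3e window held 1 E-box match and none to ACAAAG. The Sema3e window also held 2 matches to the GC box GGGCGG, printed in lower case. The window of Sema3c lies within an exon of the GENCODE annotation and is not shown. It held 2 E-box matches, 3 GC box matches and none to ACAAAG. Among all 32851 RefSeq windows of this length, 66.2% held an E-box match, 16.5% held ACAAAG, 12.4% held TATAAA and 32.7% held GGGCGG. The share of G and C bases was 46.8% in the Sema3d window, 40.8% in Sema3a, 48.0% in Sema3e and 78.4% in Sema3c, against a median of 52.4% over all windows. The Sema3c window had 39 CpG steps and the other 3 windows had between 2 and 7, against a median of 6. The RefSeq start of Sema3a lies within the longer gene span that GENCODE gives. A match describes the letters of a window and not a bound site.

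Inhibitory-like neurons could be divided into 4 subtypes by their markers, and the class 3 ligands differed between these subtypes. Sema3a had 37.9 CPM in AAV-TAU and 60.3 CPM in AAV-STOP in the Sst subtype, marked by somatostatin, and 13.8 CPM in AAV-TAU and 29.9 CPM in AAV-STOP in the Pvalb subtype, marked by parvalbumin. In the Lamp5 subtype it had 1.41 CPM in AAV-TAU and 1.34 CPM in AAV-STOP, and in the subtype marked by Cck and Vip 3.78 CPM in AAV-TAU and 4.89 CPM in AAV-STOP. Sema3c was high where Sema3a was low, with 177 CPM in AAV-TAU and 194 CPM in AAV-STOP in the Lamp5 subtype and 134 CPM in AAV-TAU and 115 CPM in AAV-STOP in the Cck and Vip subtype. It had 9.47 CPM in AAV-TAU and 10.3 CPM in AAV-STOP in the Sst subtype and 7.95 CPM in AAV-TAU and 8.27 CPM in AAV-STOP in the Pvalb subtype. Sema5b, a membrane-bound semaphorin with thrombospondin repeats, was highest in the Cck and Vip subtype, with 59.5 CPM in AAV-TAU and 80.5 CPM in AAV-STOP, and had between 1.84 and 5.17 CPM in the other 3 subtypes in either library. Sema5a, its paralogue, was highest in the Lamp5 subtype, with 336 CPM in AAV-TAU and 386 CPM in AAV-STOP, and lowest in the Pvalb subtype, with 40.8 CPM in AAV-TAU and 43.6 CPM in AAV-STOP. Nrp2 was also highest in the Lamp5 and the Cck and Vip subtypes, with 172 CPM in AAV-TAU and 170.3 CPM in AAV-STOP in the Lamp5 subtype and 194 CPM in AAV-TAU and 165 CPM in AAV-STOP in the Cck and Vip subtype, against 56.2 CPM in AAV-TAU and 41.8 CPM in AAV-STOP in the Pvalb subtype.

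Between the libraries, few of these genes differed in the 14 compared classes, and the differences past the threshold there were more often lower than higher in AAV-TAU. Ratios are on a log2 scale, of CPM + 5 in AAV-TAU over CPM + 5 in AAV-STOP, and past the fold means a difference of 1.3 times or more on this scale. Of 221 pairs of a gene and a class that passed the filter, 7 were higher (3.17%) and 22 were lower (9.95%) in AAV-TAU. Over all genes in the 14 classes, 9.21% of pairs were higher and 4.02% were lower by the same rule, so the family leaned the other way from the genes at large. For 3 of the 7 and 16 of the 22 the exact 95% interval of the ratio of counts excluded 1, and the same share over all genes was not counted. Of the 22 lower pairs, 6 were in fibroblast-like cells, a class of unevenly filled clusters described below, and Sema5a was lower in several other classes. Of these 29 pairs, 9 were past the fold under every alternative that recomputed their ratio: Plxna1 was higher in precursor-like cells, and the other 8 were lower, namely Sema3a in immature-like neurons, Sema5a in CA3-like neurons, Plxna4 and Sema5a in Cajal-Retzius-like neurons, Plxna2, Sema5a and Sema6d in microglia-like cells and Sema3e in fibroblast-like cells. Of these 9, the stricter filter (20 CPM and 100 UMIs) kept 3, namely Sema3a in immature-like neurons, Sema5a in CA3-like neurons and Plxna4 in Cajal-Retzius-like neurons, and the other 6 had fewer than 100 UMIs in both libraries together. The family's median ratio was below the median of all genes in each of the 14 classes, from -0.31 in fibroblast-like cells, where all genes had 0.02, to 0.01 in oligodendrocyte-like cells, where all genes had 0.05. Gene length moved with this. Genes over 100 kb, over all classes, were higher in 3.92% and lower in 6.23% of their pairs. Of the family, 14 genes are over 100 kb, and they were higher in 3 (1.96%) and lower in 19 (12.4%) of 153 pairs, while the 17 shorter ones were higher in 4 (5.97%) and lower in 3 (4.48%) of 67 pairs. In every class the median ratio was above 0 for genes under 5 kb (0.18 to 0.39) and below 0 for genes over 100 kb (-0.11 to -0.01), and the mitochondrial share given above was higher in AAV-TAU. The part of gene length and RNA quality in the family's ratios was not tested. Unnamed clusters are not in the counts of pairs. The cluster led by Arhgap6, Camk2d and Otof held 421 nuclei of AAV-TAU and 454 of AAV-STOP, and ratios there ran both ways. Nrp1 had 219 CPM in AAV-TAU and 131 CPM in AAV-STOP, a ratio of 0.72, with 0.56 for Sema3e and 0.50 for Sema6a. Sema6d had 113 CPM in AAV-TAU and 221 CPM in AAV-STOP, a ratio of -0.94, with -0.32 for Plxna2.

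**Figure D3:**
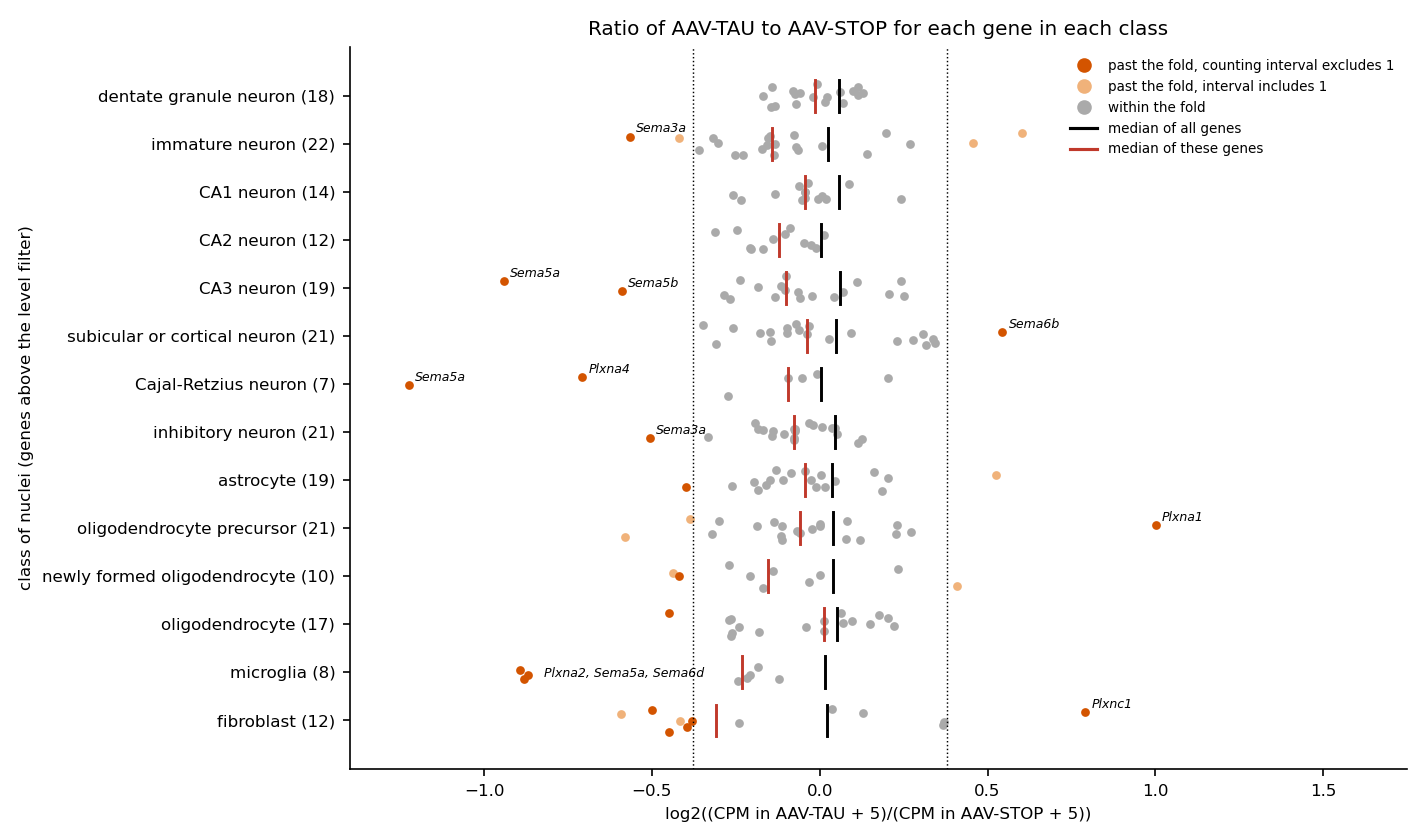
Ratio of AAV-TAU to AAV-STOP on the log2(CPM + 5) scale (horizontal) for each gene that passed the filter in each of the 14 compared classes (vertical, with the number of genes). Dark orange points are past 1.3-fold with a counting interval that excludes 1, light orange points are past it with an interval that includes 1, dotted lines mark the fold, and short black and red lines mark the median of all genes and of these genes. Most points lie within the fold, and Sema5a in Cajal-Retzius neurons lies farthest to the left, at -1.22.

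In the granule, CA1 and CA2-like neurons no gene of the family was past the fold when summed over the class. Of all genes, 2.96% were higher and 0.0329% lower in granule-like neurons, 3.02% and 0.0447% in CA1-like neurons, and 8.47% and 5.68% in CA2-like neurons. These include the deepest classes: in granule-like neurons Plxna4 had a ratio of -0.02, Nrp2 of -0.01 and Sema6d, a ligand of Plxna1, of -0.14. Single clusters within the granule and CA1-like classes held genes past the fold, both ways. Sema5b had a ratio of -0.40 in 1 granule cluster, and Sema3c had 0.69 in another. In 1 CA1 cluster Sema6b had 0.56 and Sema7a had -0.40. The count ratio intervals of these genes excluded 1 in those clusters. Sema3e in CA1-like neurons had 304 CPM in AAV-TAU and 364 CPM in AAV-STOP, a ratio of -0.26 with a count ratio of 0.834 (95% interval 0.8 to 0.869), which is a difference beyond counting error within the fold. The clusters of this class differed. The cluster of 984 AAV-TAU and 1323 AAV-STOP nuclei had 310 CPM in AAV-TAU and 394 CPM in AAV-STOP (count ratio interval 0.745 to 0.829). The cluster of 683 AAV-TAU and 665 AAV-STOP nuclei had 296 CPM in AAV-TAU and 311 CPM in AAV-STOP (0.889 to 1.02).

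CA3-like neurons had 2 genes lower and none higher out of 19, where 0.505% of all genes were lower and 4.06% higher, and both were class 5 semaphorins. Sema5a, which in the dentate gyrus is known to limit spines on granule cells, had 34.9 CPM in AAV-TAU (95% interval 30.6 to 39.7, 236 UMIs) and 71.6 CPM in AAV-STOP (65.5 to 78.2, 499 UMIs), a ratio of -0.94 with a count ratio of 0.487 (95% interval 0.416 to 0.57). Sema5b had 15.97 CPM in AAV-TAU (95% interval 13.1 to 19.3, 108 UMIs) and 26.6 CPM in AAV-STOP (22.9 to 30.7, 185 UMIs), a ratio of -0.59. The intervals of the libraries lay apart for both genes, and with a pseudocount of 20 CPM the Sema5b ratio was -0.37, within the fold. Sema5a was abundant in granule-like neurons, with 609 CPM in AAV-TAU and 674 CPM in AAV-STOP. The summed level of 8 granule markers in CA3-like neurons was 177 CPM in AAV-TAU and 168 CPM in AAV-STOP, none of the markers was at 0 in either library, and 5 of the 8 were higher in AAV-TAU. Per 100 UMIs of these markers, granule-like neurons had 15.3 Sema5a UMIs in AAV-TAU and 16.3 in AAV-STOP, while CA3-like neurons had 19.7 in AAV-TAU and 42.6 in AAV-STOP. In CA3-like neurons Rfx3 alone gave 792 of 1195 marker UMIs in AAV-TAU and 801 of 1171 in AAV-STOP. Other markers ran both ways: Calb1 had 19.7 CPM in AAV-TAU and 11.2 CPM in AAV-STOP, and Trpc6 had 3.55 and 5.88 CPM. The part of granule cell RNA in the Sema5a ratio was not tested. With each nucleus thinned to 1500 UMIs, Sema5a was found in 5.84% of 702 nuclei in AAV-TAU and 11.6% of 671 in AAV-STOP of the CA3-like class, and in 2.64% of 1667 nuclei in AAV-TAU and 2.67% of 1988 in AAV-STOP of the CA1-like class, where its level was 16.5 CPM in AAV-TAU and 17.3 CPM in AAV-STOP. Without thinning these shares were 22.9% in AAV-TAU and 36.2% in AAV-STOP for CA3-like neurons, and 10.0% in AAV-TAU and 11.2% in AAV-STOP for CA1-like neurons. In an unnamed cluster led by Col6a1, Vgll3 and Myof, whose closest markers were those of CA3, Sema5a had 154 CPM in AAV-TAU and 207 CPM in AAV-STOP. The other members of CA3-like neurons differed less: Nrp1 had a ratio of -0.10, Plxna4 of -0.10 and Sema3e of -0.13.

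Sema5a was past the fold and lower in 5 of the 14 classes, and its level was lower in AAV-TAU in 13 of them. Apart from CA3-like neurons, the 5 were Cajal-Retzius-like neurons, astrocyte-like, oligodendrocyte-like and microglia-like cells, in all of which its level was below that of granule-like neurons. The oligodendrocyte-like class had 64.8 CPM in AAV-TAU (95% interval 58.2 to 72.01, 346 UMIs) and 90.3 CPM in AAV-STOP (81.95 to 99.3, 427 UMIs), a ratio of -0.45, and the intervals of the libraries lay apart, while 1 cluster of the class alone had a ratio of -0.24. The astrocyte-like class had 47.7 CPM in AAV-TAU and 64.4 CPM in AAV-STOP, a ratio of -0.40, and of -0.25 at clustering resolution 0.5. In the classes where it was highest the difference was within the fold, with ratios of -0.14 in granule-like neurons, -0.25 in immature-like neurons and -0.17 in newly formed oligodendrocyte-like cells. In precursor-like cells the ratio was 0.12. The granule markers summed to 819.8 CPM in AAV-TAU and 859.6 CPM in AAV-STOP in the oligodendrocyte-like class and to 1219 CPM in AAV-TAU and 1417 CPM in AAV-STOP in the astrocyte-like class. The part of granule cell RNA in these Sema5a ratios was not tested.

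**Figure D4:**
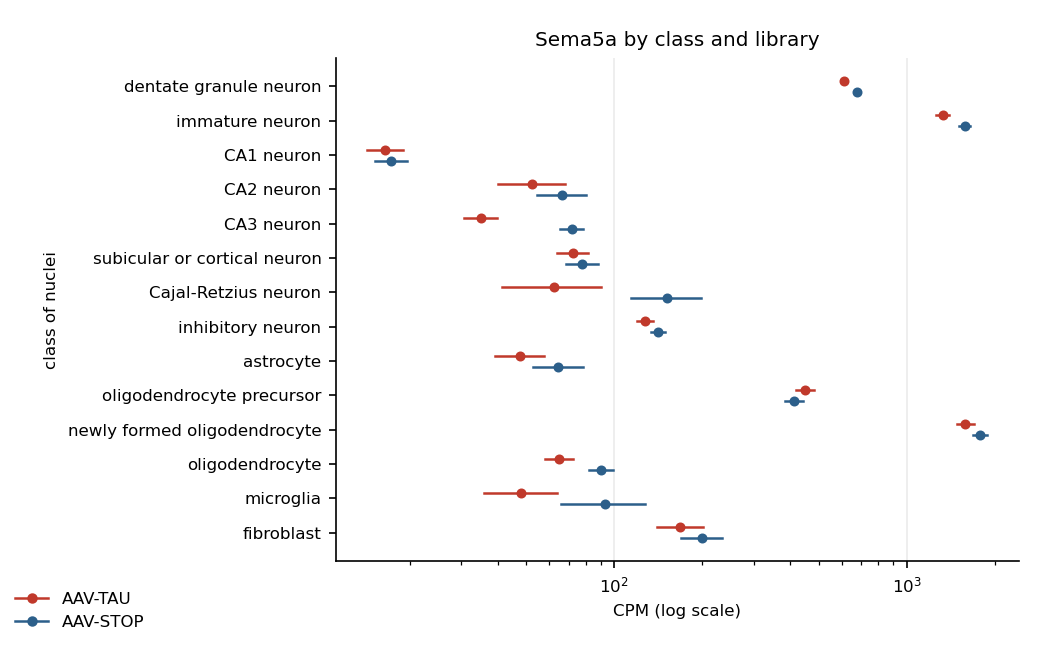
CPM of Sema5a on a log axis (horizontal) in the 14 compared classes (vertical), in AAV-TAU (red, above) and AAV-STOP (blue, below), with exact 95% Poisson intervals. The libraries lie close where the gene is abundant, and AAV-TAU lies to the left in CA3 neurons at 34.9 against 71.6 CPM.

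Cajal-Retzius-like neurons, the reelin-producing cells of the marginal zone, had 2 genes lower and none higher out of 7, where 11.6% of all genes were lower and 15.5% higher. Sema5a had 62.1 CPM in AAV-TAU (95% interval 41.3 to 89.8, 28 UMIs) and 152 CPM in AAV-STOP (114 to 198, 54 UMIs), and Plxna4 had 275 CPM in AAV-TAU (95% interval 229 to 328, 124 UMIs) and 453 CPM in AAV-STOP (386 to 528, 161 UMIs), with ratios of -1.22 and -0.71. Both genes are abundant in granule-like neurons, and the 8 granule markers summed to 446 CPM in AAV-TAU and 548 CPM in AAV-STOP in this class, with 4 of 8 higher in AAV-TAU and none at 0 in either library. Per 100 UMIs of these markers, Cajal-Retzius-like neurons had 13.9 Sema5a UMIs in AAV-TAU and 27.7 in AAV-STOP. The part of granule cell RNA in the Sema5a and Plxna4 ratios was not tested. The class carried its own markers, such as Reln, the reelin gene, with 7711 CPM in AAV-TAU and 8009 CPM in AAV-STOP. Plxnd1, which leads in this class, had a ratio of -0.05 and Sema6a had -0.01, and both count ratio intervals included 1.

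Sema3a, the ligand of Nrp1 that collects in the perineuronal nets of parvalbumin neurons, was lower in AAV-TAU in inhibitory-like neurons, the only 1 of 21 genes past the fold there, where 0.293% of all genes were lower and 4.01% higher. It had 17.1 CPM in AAV-TAU (95% interval 14.4 to 20.2, 140 UMIs) and 26.4 CPM in AAV-STOP (23.05 to 30.2, 218 UMIs), a ratio of -0.51 with a count ratio of 0.649 (95% interval 0.521 to 0.806). With nuclei thinned to 1500 UMIs the ratio was -0.24, and with a pseudocount of 20 CPM it was also within the fold. The difference lay in both subtypes that hold its RNA: the Sst subtype had a count ratio of 0.629 (95% interval 0.483 to 0.816) and the Pvalb subtype of 0.462 (95% interval 0.281 to 0.738), with the levels given above. In immature-like neurons it had 39.4 CPM in AAV-TAU (95% interval 28.4 to 53.3, 42 UMIs) and 60.8 CPM in AAV-STOP (48.4 to 75.3, 83 UMIs), a ratio of -0.57, with intervals that overlapped. An unnamed cluster with inhibitory markers, led by Baiap3, Glra3 and Ankfn1 and holding 221 nuclei of AAV-TAU and 533 of AAV-STOP, had 39.4 CPM in AAV-TAU and 82.7 CPM in AAV-STOP. The difference was not shared by every class: CA1-like neurons had 8.86 CPM in AAV-TAU and 8.78 CPM in AAV-STOP, an unnamed cluster led by Arhgap6, Camk2d and Otof had 40.6 CPM in AAV-TAU and 36.8 CPM in AAV-STOP, and subicular or cortical-like neurons had 13.6 CPM in AAV-TAU and 9.69 CPM in AAV-STOP, with a count ratio of 1.41 (95% interval 0.879 to 2.28). Its receptor genes in inhibitory-like neurons had ratios of 0.11 for Nrp1 and -0.07 for Plxna4.

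**Figure D5:**
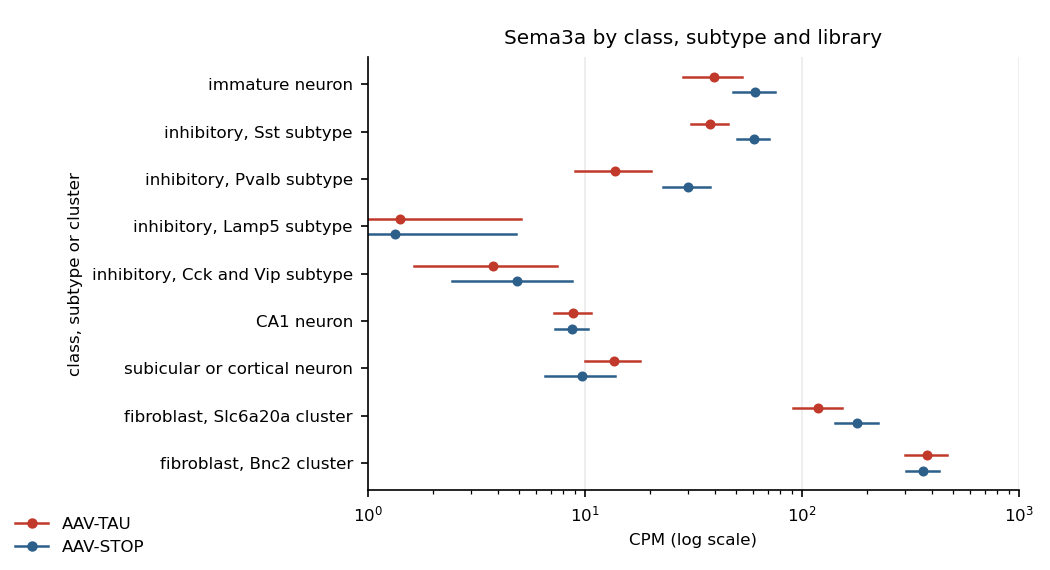
CPM of Sema3a on a log axis (horizontal) in immature neurons, the 4 inhibitory subtypes, CA1 and subicular or cortical neurons, and the 2 fibroblast clusters (vertical), in AAV-TAU (red, above) and AAV-STOP (blue, below), with exact 95% Poisson intervals cut at the left edge. AAV-TAU lies to the left in the Sst subtype (37.9 against 60.3 CPM) and the Pvalb subtype (13.8 against 29.9 CPM).

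Immature-like neurons had 2 genes lower and 2 higher out of 22, where 5.63% of all genes were lower and 12.1% higher. Besides Sema3a, Sema4c, a Plxnb2 ligand, had 20.7 against 29.3 CPM, and Plxnb2 had 30.99 against 21.2 CPM and Sema4b 28.2 against 16.8 CPM, in AAV-TAU against AAV-STOP, with intervals of the count ratio that included 1 for all 3. All 6 genes for which this class is highest had lower levels in AAV-TAU, within the fold. Most of the family did so here: of the 22 genes, 6 had a ratio above 0, and the median ratio of the 22 was -0.14. In this class the median was 0.03 for all genes and -0.06 for genes over 100 kb. The share of all genes with a ratio below 0 was not counted. The count ratio interval excluded 1 for Plxna2 (ratio -0.23), Sema3c (-0.16) and Sema6d (-0.15), and included it for Plxna3 (-0.32), Sema4g (-0.17) and Nrp2 (-0.13). The 7 inhibitory markers summed to 564 CPM in AAV-TAU and 384 CPM in AAV-STOP in this class, with 7 of 7 higher. The granule markers summed to 1773 and 1952 CPM, and the class's own markers to 982 and 998 CPM. The part of other cells in these ratios was not tested. In subicular or cortical-like neurons 1 of 21 genes was higher and none lower, where 6.79% of all genes were higher and 1.55% lower. This was Sema6b, a class 6 semaphorin, with 16.4 CPM in AAV-TAU (95% interval 12.5 to 21.2, 59 UMIs) and 9.69 CPM in AAV-STOP (6.59 to 13.8, 31 UMIs), and with a pseudocount of 20 CPM its ratio was 0.29, within the fold.

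In the oligodendrocyte lineage, precursor-like cells had 1 gene higher and 2 lower out of 21, where 12.2% of all genes were higher and 4.13% lower. Plxna1, a receptor of Sema3 with neuropilins and of Sema6d, had 26.3 CPM in AAV-TAU (95% interval 19.2 to 35.03, 46 UMIs) and 10.6 CPM in AAV-STOP (6.49 to 16.4, 20 UMIs), a ratio of 1.00 with a count ratio of 2.47 (95% interval 1.43 to 4.41). In CA1-like neurons, where Plxna1 was highest, its ratio was 0.01, and the difference between classes was not tested. Plxnb1 had 17.1 against 23.9 CPM and Plxnb2 12.6 against 21.2 CPM, in AAV-TAU against AAV-STOP, with count ratio intervals that included 1. Sema3d, highest in this class, had a ratio of -0.32, within the fold, with a count ratio of 0.798 (95% interval 0.71 to 0.896). Newly formed oligodendrocyte-like cells had 1 gene higher and 2 lower out of 10, where 14.7% of all genes were higher and 9.25% lower. There Sema3d had 188 CPM in AAV-TAU (95% interval 153 to 228, 102 UMIs) and 253 CPM in AAV-STOP (216 to 295, 164 UMIs), Sema3e had 83.04 against 114 CPM and Plxna4 59.05 against 43.3 CPM, in AAV-TAU against AAV-STOP, and only for Sema3d did the count ratio interval exclude 1. At clustering resolution 0.5 the Sema3d ratio was -0.23. In oligodendrocyte-like cells Sema5a was the 1 gene of 17 that was lower and none was higher, where 1.65% of all genes were lower and 10.3% higher. Plxnb3, the plexin of this lineage, had ratios of -0.06 in precursor-like, 0.23 in newly formed and 0.01 in oligodendrocyte-like cells. Astrocyte-like cells had 1 gene lower, Sema5a, and 1 higher of 19, where 5.75% of all genes were lower and 13% higher. The higher one was Sema5b, with 26.00 CPM in AAV-TAU (95% interval 19.8 to 33.5, 60 UMIs) and 16.5 CPM in AAV-STOP (10.9 to 24.1, 27 UMIs), whose count ratio interval included 1.

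Microglia-like cells had 3 genes lower and none higher out of 8, where 11% of all genes were lower and 16.6% higher. The class held 517 nuclei in AAV-TAU and 170 in AAV-STOP. Plxna2 had 36.6 CPM in AAV-TAU (95% interval 25.9 to 50.2, 38 UMIs) and 70.98 CPM in AAV-STOP (47.5 to 102, 29 UMIs), Sema5a had 48.2 CPM in AAV-TAU (95% interval 35.7 to 63.5, 50 UMIs) and 93.01 CPM in AAV-STOP (65.8 to 128, 38 UMIs) and Sema6d had 38.5 CPM in AAV-TAU (95% interval 27.5 to 52.5, 40 UMIs) and 75.9 CPM in AAV-STOP (51.6 to 108, 31 UMIs). All 3 genes have higher levels in other classes, and markers of other cells ran both ways between the libraries. The 8 markers of oligodendrocyte precursors summed to 198 CPM in AAV-TAU and 316 CPM in AAV-STOP, with 3 of 8 higher in AAV-TAU. The 9 astrocyte markers summed to 441 CPM in AAV-TAU and 671 CPM in AAV-STOP, with none of 9 higher, and the 8 fibroblast markers to 103 CPM in AAV-TAU and 249.7 CPM in AAV-STOP, with 2 of 8 higher and Bnc2 at 0 in AAV-STOP. The 10 oligodendrocyte markers, the most abundant of the other lists, summed to 1923 CPM in AAV-TAU and 1667 CPM in AAV-STOP, with 6 of 10 higher, the 8 CA1 markers to 438 CPM in AAV-TAU and 409 CPM in AAV-STOP and the 9 endothelial markers to 64.5 CPM in AAV-TAU and 41.6 CPM in AAV-STOP. The granule markers summed to 592 CPM in AAV-TAU and 531 CPM in AAV-STOP, and per 100 of their UMIs there were 8.13 Sema5a UMIs in AAV-TAU and 17.5 in AAV-STOP. The part of the other cell types in these ratios was not tested. The other 5 genes that passed the filter here were within the fold, with count ratio intervals that included 1 and ratios of -0.21 for Nrp1, -0.24 for Nrp2, -0.22 for Plxna4, -0.12 for Plxnb2 and -0.18 for Sema4d.

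Fibroblast-like cells had 6 genes lower and 1 higher out of 12, where 12.5% of all genes were lower and 17% higher, but the class joined a pair of clusters that the libraries filled unevenly. The cluster led by Slc6a20a, Ranbp3l and Slc7a11 held 194 nuclei of AAV-TAU and 150 of AAV-STOP, and the cluster led by Bnc2, Adamtsl3 and Slc47a1 held 70 of AAV-TAU and 117 of AAV-STOP. Nrp1 had 1032 CPM in AAV-TAU and 983 CPM in AAV-STOP in the Bnc2 cluster, against 122 CPM in AAV-TAU and 145 CPM in AAV-STOP in the Slc6a20a cluster. Sema3a had 377 CPM in AAV-TAU and 363 CPM in AAV-STOP in the Bnc2 cluster and 119.7 CPM in AAV-TAU and 181 CPM in AAV-STOP in the Slc6a20a cluster. Sema3d followed them, with 246 CPM in AAV-TAU and 234 CPM in AAV-STOP in the Bnc2 cluster and 50.7 CPM in AAV-TAU and 96.2 CPM in AAV-STOP in the Slc6a20a cluster, whereas Plxna2 was higher in the Slc6a20a cluster, with 617 CPM in AAV-TAU and 1069.9 CPM in AAV-STOP, than in the Bnc2 cluster, with 287 CPM in AAV-TAU and 268 CPM in AAV-STOP. In the Bnc2 cluster the count ratio intervals of these 4 genes included 1, with ratios of 0.05 to 0.10. In the Slc6a20a cluster they had ratios of -0.25 for Nrp1, -0.57 for Sema3a, -0.86 for Sema3d and -0.79 for Plxna2, and the interval excluded 1 for all but Nrp1. Other genes differed in the Bnc2 cluster. Plxna4 had 177 CPM in AAV-TAU and 76.0 CPM in AAV-STOP there, a ratio of 1.17. Sema6d had 150 CPM in AAV-TAU and 81.7 CPM in AAV-STOP, a ratio of 0.84, and both intervals excluded 1. In the Slc6a20a cluster these ratios were -0.45 and 0.11, with intervals that included 1. Sema5a had a ratio of 0.63 in the Bnc2 cluster, where the interval included 1. In the Slc6a20a cluster it had -0.69, and the interval excluded 1. For the class as a whole Nrp1 had a ratio of -0.38, Sema3a of -0.40, Sema3d of -0.50 and Plxna2 of -0.45. Sema3c had -0.42 and Sema3e -0.59, each with a count ratio interval that included 1. Plxnc1, the higher one, had 112 CPM in AAV-TAU and 62.7 CPM in AAV-STOP, and 150.1 CPM in AAV-TAU and 108 CPM in AAV-STOP in the Slc6a20a cluster, which held most of its UMIs. With doublets kept its ratio in the class was 0.25. Markers of other cells differed between the libraries in this class and ran both ways. In AAV-TAU and AAV-STOP the choroid plexus markers summed to 770 and 362 CPM, the astrocyte markers to 1696 and 1131 CPM and the border macrophage markers to 87.0 and 8.96 CPM. The oligodendrocyte markers summed to 1525 and 1884 CPM, and the fibroblast markers to 4237 and 4969 CPM. The part of other cells in these ratios was not tested.

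Genes that work with the family were read from 3 lists. Of the 10 coreceptors and other receptors, 66 pairs of a gene and a class passed the filter over the 14 classes, of which 1 was higher and none lower, against the 9.21% higher and 4.02% lower of all genes. The 1 was Ptk7, a kinase-like receptor of planar cell polarity, in precursor-like cells, with 23.4 CPM in AAV-TAU and 15.9 CPM in AAV-STOP. Of the 29 intracellular mediators of plexin signalling, 303 pairs passed, of which 36 were higher and 5 lower, beside the same 9.21% and 4.02% of all genes. Cfl1, the actin-severing protein cofilin at the end of the LIM kinase branch, had 65.6 CPM in AAV-TAU and 46.1 CPM in AAV-STOP in granule-like neurons and 126 CPM in AAV-TAU and 67.4 CPM in AAV-STOP in immature-like neurons, and was among the 3 widest ratios of the list in 12 of the 14 classes, each time higher in AAV-TAU. Crmp1, a collapsin response mediator, had 45.1 CPM in AAV-TAU and 25.1 CPM in AAV-STOP in astrocyte-like cells and 34.7 CPM in AAV-TAU and 23.7 CPM in AAV-STOP in oligodendrocyte-like cells. Of the 23 genes of other axon guidance families (slits, netrins, ephrins and their receptors), 235 pairs passed. Of these, 10 were higher and 34 lower, beside the same 9.21% and 4.02%. Ephb1, an ephrin receptor, had 146 CPM in AAV-TAU and 203 CPM in AAV-STOP in CA3-like neurons and 155 CPM in AAV-TAU and 256 CPM in AAV-STOP in astrocyte-like cells. Unc5c, a netrin receptor, had 1037 CPM in AAV-TAU and 1452 CPM in AAV-STOP in oligodendrocyte-like cells, and Epha5 had 210.4 CPM in AAV-TAU and 293 CPM in AAV-STOP in immature-like neurons. The guidance families other than semaphorins thus leaned to lower values as the semaphorins and plexins did. Genes under 5 kb had a median ratio above 0 in every class (0.18 to 0.39). The part of gene length in the ratios of the 3 lists, Cfl1 included, was not tested.

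Plxna4os1, Plxna4os2 and Plxna4os3 are annotated on the forward strand of chromosome 6 inside Plxna4, which is on the reverse strand. Plxna4os3 alone passed the filter, in granule-like neurons, with 13.6 CPM in AAV-TAU and 15.4 CPM in AAV-STOP. Whether the counting used strand is not given in the sources used here, so its reads and those of Plxna4 cannot be told apart.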

How the data were processed

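Nuclei of mouse hippocampus were profiled with 10x Genomics 3′ single-nucleus RNA sequencing in 1 AAV-TAU and 1 AAV-STOP library, each pooled from 3 mice. The deposited matrices hold UMI counts per gene and barcode, without normalization. The submitters' processing notes name Cell Ranger 4.0, Seurat 4.4.0 and mm10, while the file headers name Cell Ranger 8.0.1. Gene positions were taken from GENCODE vM21.

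Barcodes with at least 500 UMIs, 300 genes and at most 5% mitochondrial UMIs were kept. Doublets were scored in each library against simulated pairs at an expected rate of 0.15 and left out. Both libraries were clustered together on 3000 variable genes without the 34 studied ones (30 principal components, 15 neighbours, Leiden resolution 1). A cluster was named where its markers had a mean log2 level of 1.6 or more over the other clusters, led the next type by 0.7 and included at least 3 raised markers. It stayed unnamed where its leading 10 genes pointed to another type or, for glia, where Rbfox3 passed 50% of its neuronal level.

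UMIs were summed per class and library and given as CPM with exact 95% Poisson intervals, which cover counting error only. The ratio used a pseudocount of 5 CPM, and count ratios have exact conditional intervals. With 1 library per group no p-value was computed. The members and lists were chosen with earlier results of these data known. All members could be named, and from each pathway list up to 3 genes per class with the widest ratio.

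The ratio was tested on simulated counts with 200 genes changed by 2-fold. In granule neurons, over 9092 genes, 94.0% of the changed genes were past 1.3-fold and none of the unchanged ones. In microglia, over 6023 genes, 83.5% of the changed and 17.5% of the unchanged genes were past it. The simulated libraries shared 1 profile and differed by counting error and the set changes only. They held no spread between mice or libraries, so these shares are not rates of false calls in the real data. Alternatives covered the pseudocount, filter, scaling, clustering resolution, doublets, depth and the unit averaged. Analyses used Python 3.11.15 with numpy 2.4.6, scipy 1.17.1, pandas 2.3.3, scikit-learn 1.9.0, igraph 0.11.9, leidenalg 0.10.2 and matplotlib 3.10.9.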

Additional observations from a re-analysis of the deposited data

Results flagged for a closer look

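Nuclei with the markers of the habenula, a region next to the hippocampus, numbered 106 in AAV-TAU and 0 in AAV-STOP. They were left out of all comparisons. In these nuclei Nrp2 had 586 CPM, Sema6d 567 CPM, Sema3e 348 CPM, Sema5a 256 CPM, Sema6a 141 CPM and Plxnc1 132 CPM. For Nrp2 and Sema3e these levels were above those in every other named class of the AAV-TAU library.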

How the results depend on the processing

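The counts of pairs past the fold depended on the settings, while the family's median ratio in each class moved by less than the median half-width of the class's counting intervals in all of them. The number of higher pairs, 7 as reported, was 12 with a pseudocount of 1 CPM, 3 with 20 CPM, 32 with no filter on low levels, 1 with the stricter filter (20 CPM and 100 UMIs), 17 with nuclei thinned to 1500 UMIs and 11 as a mean over nuclei. The number of lower pairs, 22 as reported, was 13 with a pseudocount of 20 CPM, 60 with no filter, 13 with the stricter filter and 13 at clustering resolution 0.5. Directions turned for 6 pairs. Sema5b in astrocyte-like cells had a ratio of -0.083 when thinned. Plxna4 in newly formed oligodendrocyte-like cells had -0.29 with doublets kept, -0.23 when thinned and -0.050 as a mean over nuclei. In fibroblast-like cells, at resolution 0.5 and with doublets kept, Nrp1 had 0.070 and 0.15, Plxna2 0.10 and 0.060, Sema3a 0.054 and 0.19, and Sema3d 0.070 and 0.033. At resolution 0.5 the fibroblast-like class held only the Bnc2 cluster. For the other turned directions the cause was not tested. Over all settings, 2032 ratios of a pair stayed within their counting interval, 109 moved outside it and 12 turned. The settings differed in this: with either other pseudocount all 221 stayed, while thinning moved 29 and turned 2. Within single clusters of a class, the highest cluster ratio moved for 29 pairs and stayed for 53. The lowest moved for 28 and stayed for 54. Values within each cluster of a class and in the separate fibroblast clusters were added after the data were seen. Depth limits the small classes: in microglia-like cells the counting interval of a ratio reached a median of 0.57 (log2) to either side. No paired analysis was possible because each group has 1 library.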
